A study of Mus musculus with 4 samples.

Results

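Matched treatment arms were compared between melanomas collected at day 21 and at day 14 after implantation. Cells were assigned to an arm by antibody hashtags, which are DNA barcodes carried on antibodies that stain every cell of a sample before pooling. Of 7503 cell barcodes in the series, 6625 passed the limits on genes and mitochondrial UMIs and had a leading hashtag with at least 3 times the UMIs of the second. Of these cells, 2053 came from day 21 and 4572 from day 14, and each day held the same 5 arms, which gave 5 pairs.

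YUMMER1.7 cells, a mouse melanoma line with many mutations, were grown in male C57BL/6J mice aged 7 to 8 weeks, and antibody treatment began at day 7. The long cohort received 4 doses over 2 weeks and was collected at day 21, whereas the short cohort received 2 doses over 1 week and was collected at day 14. The arms were an isotype control antibody, anti-PD1 (10 mg/kg), anti-MIF (20 mg/kg), both antibodies together (anti-PD1-MIF), and a further hashtag named anti-PD1-MIF-DDT that the sample descriptions leave out, so that its agents and doses beyond the name are not given in the sources used here. Sorted CD45- and CD45+ cells were recombined at 20% and 80% before capture, so the ratio of immune to other cells was set by hand. Each cohort was 1 pooled library, and each arm within it 1 hashtagged sample in which single mice cannot be told apart. Day, number of doses, mice and library therefore cannot be told apart either, and every p-value below measures only how alike the 2 libraries differed across the 5 arms.

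CD8 T cells kill tumor cells through perforin and granzymes, and on repeated antigen contact they take on inhibitory receptors such as PD-1, LAG-3 and TIGIT while the transcription factors of naive and memory cells decline. Monocytes that enter a tumor mature into macrophages, many of which make the complement component C1q and present antigen on MHC class II. MIF is a cytokine that signals through CD74, a chain which also serves inside the cell as the invariant chain of MHC class II.

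The 5 hashtags are shown because they define the pairs. Each is 15 bases long, and the closest pair differs at 8 positions.
Isotype: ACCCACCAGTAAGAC
anti-PD1: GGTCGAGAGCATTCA
anti-MIF: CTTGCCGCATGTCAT
anti-PD1-MIF: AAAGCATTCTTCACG
anti-PD1-MIF-DDT: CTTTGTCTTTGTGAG
Values by arm are given in this order throughout. The numbers of cells were 159, 386, 895, 288 and 325 at day 21, and 744, 1714, 567, 476 and 1071 at day 14. The anti-MIF arm thus held the most cells of the day 21 library and the anti-PD1 arm the most of the day 14 library.

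Cells of the day 21 library held more UMIs. The median cell held 8758 UMIs at day 21 and 5909.5 at day 14, and the median second hashtag 200 and 42 UMIs, respectively. No arm could be given to 15.3% of the day 21 cells and to 6.60% of the day 14 cells that passed the other limits. The libraries shared 20 cell barcodes, of which 15 were among the assigned cells and 5 carried the same arm on both days. Against the tumor label, Mlana, Tyr, Tyrp1, Dct and Sox10, which define pigment cells, had no UMI in any arm on either day, so the melanoma cells cannot be identified by these markers. Of the 10 genes of the melanoma list, only Mitf was frequent enough to test, and it was lower at day 21 by a log2 difference of -0.65 ± 0.17, a call lost with the span trend described next removed (a summed list level of 28.2 to 60.6 CPM at day 21 and 52.5 to 80.0 at day 14, with CPM the usual scaling of UMIs to the total of that arm and gate), and myeloid cells also express it.

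The libraries also differed along the length of the genes. Genes spanning more than 100 kb took 8.57%, 8.56%, 7.36%, 7.89% and 8.29% of the UMIs of all cells at day 21 and 9.19%, 9.77%, 9.78%, 9.81% and 9.78% at day 14. The day 21 share was the lower in 5 of 5 arms and the ranges did not overlap. In all cells, the median span of the genes tested was 24.1 kb, against 11.6 kb for genes called higher and 79.7 kb for genes called lower at day 21. Long genes have long introns, and whether intronic reads entered the counts is not given in the sources used here. Each comparison was therefore repeated with the trend of expression on gene span removed in every sample, an alternative chosen after seeing the data, and the counts it gave stand with each gate below. The part of this trend in the remaining differences was not tested.

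**Figure D1:**
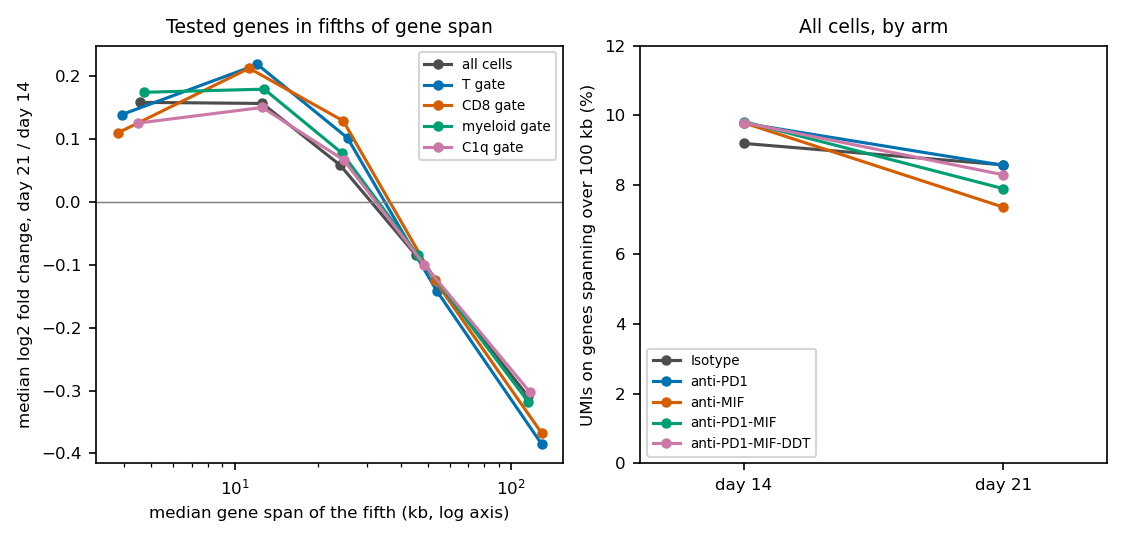
Left, median log2 difference between day 21 and day 14 of the genes tested, split into 5 equal groups by span and drawn against the median span of each group (kb, log axis), with a line for each gate. Right, percent of UMIs on genes spanning over 100 kb, by arm and day. In all cells the medians run from 0.16 for the shortest genes to -0.31 for the longest, and all 5 gates have their lowest median in the longest group.

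T cells took a larger and myeloid cells a smaller share at day 21 in all 5 arms. After each cell was thinned to 2000 UMIs, the T gate (at least 1 UMI of Cd3e, a chain of the T cell receptor complex, and under 3 of Lyz2, the lysozyme of myeloid cells) held 33.3%, 19.2%, 9.93%, 14.2% and 5.59% of cells at day 21, against 2.96%, 10.1%, 8.10%, 7.23% and 3.55% at day 14. The mean difference was 10.1 percentage points (SD 11.8, n = 5 pairs), and without the isotype pair it was 5.0. The exact Clopper-Pearson 95% intervals did not overlap in the isotype, anti-PD1 and anti-PD1-MIF arms, with 25.8% to 41.6% against 1.79% to 4.58% in the isotype arm. They overlapped in the anti-MIF and anti-PD1-MIF-DDT arms. Intervals cover counting error only.

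The myeloid gate (at least 3 Lyz2 UMIs and no Cd3e) held 26.5%, 27.6%, 46.9%, 44.9% and 62.2% of thinned cells at day 21 and 64.0%, 57.7%, 58.9%, 54.8% and 66.8% at day 14, a mean difference of -18.8 points (SD 14.2). The intervals of the 2 days overlapped in the anti-PD1-MIF and anti-PD1-MIF-DDT arms. For both gates the signs of the 5 pair differences were permuted exactly (two-sided), which gave p = 0.0625, the smallest that 5 pairs can give, and 0.125 after Benjamini-Hochberg adjustment over the 8 shares compared. A p under 0.05 could not be reached in this design. Before thinning, 308 cells at day 21 and 371 at day 14 were in the T gate, 1100 and 2965 in the myeloid gate, and 631 and 1220 in neither. The shares are of recombined cells and move against each other by construction.

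Within the myeloid gate, cells with at least 3 UMIs of C1qa, C1qb and C1qc (the C1q gate) made up 17.9%, 25.3%, 61.0%, 36.7% and 16.4% at day 21 and 17.8%, 13.9%, 12.7%, 10.2% and 8.89% at day 14. The share was higher at day 21 in 5 of 5 arms, by 18.8 points on average (SD 19.1, exact p = 0.0625, adjusted 0.125), but in the isotype arm it differed by less than the counting error and without the anti-MIF pair the mean was 11.4. With HTODemux, and with no upper limit on genes per cell, the isotype arm turned and the share was higher in 4 of 5 arms (exact p = 0.125). As a background, 0 of 254 T-gate cells at day 21 and 2 of 277 at day 14 met the same limit. Cells with a Ly6c2 UMI, a gene of inflammatory monocytes, were 74.4%, 74.7%, 37.0%, 53.3% and 83.6% of the myeloid gate at day 21 and 57.2%, 81.1%, 64.9%, 77.0% and 72.5% at day 14, with no common direction (exact p = 0.5625). As a background, cells with at least 1 UMI of Ccr7 and 3 of Fscn1, genes of mature dendritic cells, held a Ly6c2 UMI in 0.971% of 103 cells at day 21 and 5.41% of 37 at day 14, with a median of 8801 and 7416 UMIs per cell before thinning against 10857 and 6776 in the myeloid gate. The anti-MIF arm at day 21 had both the highest C1q share and the lowest Ly6c2 share of the 10 samples.

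Cells of the CD8 gate (Cd8a or Cd8b1 and no Cd4) were 87.8%, 77.3%, 73.8%, 78.9% and 70.6% of thinned T cells at day 21 and 42.1%, 70.6%, 72.5%, 54.8% and 67.6% at day 14. The share was higher at day 21 in 5 of 5 arms (mean 16.1 points, SD 18.8, exact p = 0.0625, adjusted 0.125), with the isotype arm furthest apart and a mean of 8.76 points without it. The T gate of the isotype arm held 57 cells at day 21 and 33 at day 14 before thinning, which left shallower cells out. In the other 4 arms the intervals of the 2 days overlapped, with differences of 1.31 points in the anti-MIF arm and 2.94 in the anti-PD1-MIF-DDT arm. Without thinning it was higher in 3 of 5 arms, since the anti-MIF (66.4% against 69.8%) and anti-PD1-MIF-DDT arms (71.4% against 76.1%) turned. In the myeloid gate 0.238% of cells at day 21 and 0.244% at day 14 held these transcripts. Foxp3, the transcription factor of regulatory T cells, was seen in 0 to 23.5% of T cells at day 21 and 2.94% to 9.68% at day 14, on at most 8 cells an arm, and its direction differed between arms (exact p = 0.75). In the myeloid gate Foxp3 was seen in 0 of 840 cells at day 21, with an exact 95% interval up to 0.438%, and in 0.122% of 2456 at day 14. The T gate held a median of 5643.5 and 4296 UMIs per cell before thinning. T cells with a UMI of Mki67 or Top2a, genes of dividing cells, were 10.7% to 18.4% and 0 to 17.5% (exact p = 0.6875), and in the myeloid gate 0.529% to 5.79% and 0.780% to 3.41% (exact p = 0.375). Before thinning, the cycling share of T cells was higher at day 21 in 5 of 5 arms by 12.9 points, with the UMIs per cell of the libraries unequal.

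**Figure D2:**
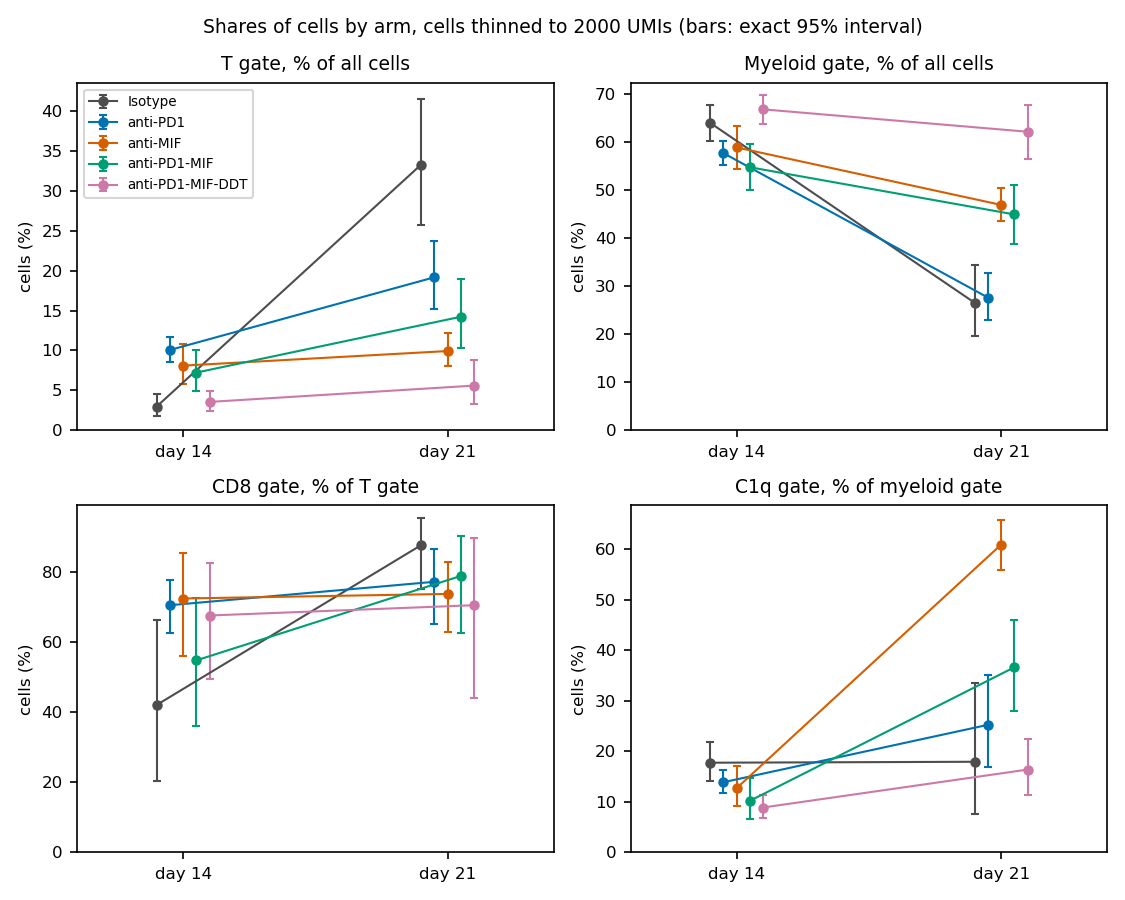
Percent of thinned cells in the T, myeloid, CD8 and C1q gates at day 14 and day 21, with a line joining the 2 days of each arm and exact 95% intervals as bars. The T share lies higher and the myeloid share lower at day 21 in each of the 5 arms, and the C1q share of the anti-MIF arm stands apart at 61.0%.

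Over all cells, 1600 of 10232 genes tested (15.6%) differed between the days, 734 higher (7.17%) and 866 lower (8.46%) at day 21. The CPM ranges of the 5 arms did not overlap between days in 12.9% of the genes tested. A gene was called at an adjusted p below 0.05 in edgeR's quasi-likelihood test with Benjamini-Hochberg adjustment and an absolute log2 difference above 0.5. With the span trend removed 948 were called, 512 higher and 436 lower, of which 775 were among the 1600. Scaling by total UMIs alone, an alternative also chosen after seeing the data, gave 876 higher and 693 lower. The direction with more calls thus depended on the processing. Leaving out the anti-PD1, anti-MIF or anti-PD1-MIF pair left 701, 688 and 798 calls. Of the 57 genes followed by name over all cells, 20, 17 and 21 lost their call without these pairs. Not every such loss is marked below. Of the 29 cell cycle genes tested 20 were higher and 0 lower (69.0% called), and 15 and 0 with the span trend removed. In sums over all cells, fewer cells of a type and less RNA per cell cannot be told apart.

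Genes of mature dendritic cells, which carry antigen to lymph nodes, were among the largest increases. Fscn1, the actin-bundling protein of dendritic cell protrusions (chr5:142960343-142973185, plus strand, mm10), was at 390, 293, 434, 222 and 120 CPM at day 21 and 106, 14.2, 26.9, 56.0 and 34.4 at day 14. Every day 21 arm lay above every day 14 arm, and the log2 difference was 2.72 ± 0.41 (SE, adjusted p = 0.00658). Ccr7, the chemokine receptor that guides these cells, was at 341, 380, 404, 191 and 154 CPM against 148, 34.7, 71.8, 69.5 and 53.2, again without overlap (log2 difference 1.96 ± 0.31, adjusted p = 0.00724). Il12b, a subunit of interleukin 12, was at 52.5, 36.4, 94.8, 50.4 and 34.1 CPM against 23.5, 13.7, 3.19, 13.8 and 9.78 (1.99 ± 0.43, adjusted p = 0.0173), but lost its call without the anti-PD1-MIF pair and with HTODemux, another way of assigning hashtags. Of the 9 genes tested from the mature dendritic cell list 7 were higher and 0 lower, with a median log2 difference of 1.73 against 0.0032 over all genes tested. The same 7 to 0 held with the span trend removed, and the others called were Ccl22, Cacnb3, Relb and Socs2. The most abundant gene of the list was Ccl5, which T cells also express.

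Several genes that T cells express were higher at day 21. Lag3, an inhibitory receptor that binds MHC class II, was at 172, 119, 44.8, 64.7 and 36.8 CPM against 13.5, 27.6, 16.8, 23 and 11.1 (log2 difference 2.02 ± 0.29, adjusted p = 0.00533). Pdcd1, which encodes PD-1, was at 182, 89.7, 48.5, 53.0 and 31.7 CPM against 12.7, 35.1, 15.7, 13.1 and 17.2 (1.85 ± 0.35, adjusted p = 0.0118). The isotype arm was the highest at day 21 for both genes and the anti-PD1-MIF-DDT arm the lowest. Cd3e, which defines the T gate and so restates its share, rose by 1.66 ± 0.46 and Cd8a by 1.56 ± 0.41 on the log2 scale (adjusted p = 0.0365 and 0.0316), but both lost their call with the span trend removed and without the anti-PD1 or the anti-PD1-MIF pair, Cd3e also without the anti-MIF pair and Cd8a without the anti-PD1-MIF-DDT pair. Of the 10 T cell genes tested, Cd3e included, 5 were higher and 0 lower (median 0.98), and 1, Cd5, stayed called with the trend removed. Of the 10 regulatory and helper T cell genes tested 4 were higher, including Tnfrsf4 and Tnfrsf18, the receptors OX40 and GITR, and 0 lower. Cadm1, an adhesion protein of type 1 conventional dendritic cells, rose by 1.81 ± 0.17 (adjusted p = 0.00286). Of the 6 genes tested from the list of these dendritic cells 2 were higher and 0 lower, and 1 was higher with the span trend removed. Il4i1, an enzyme that breaks down phenylalanine, and Tuba1a and Rgs16, a tubulin and a brake on G-protein signaling, rose as well, although Rgs16 lost its call without the anti-PD1-MIF pair. Tuba1a has close copies in the genome that could share reads.

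The largest decreases included Ace and Adgre4. Ace, the angiotensin-converting enzyme, was at 16.5, 39.6, 21.3, 27.5 and 43.4 CPM at day 21 and 93.8, 84.1, 128, 106 and 185 at day 14 (log2 difference -2.07 ± 0.22, adjusted p = 0.00286), with no overlap between days. Adgre4, an adhesion receptor of monocytes, was at 22.7, 14.7, 13.7, 11.7 and 16.2 CPM against 39.0, 31.4, 67.0, 42.9 and 72.6 (-1.75 ± 0.22, adjusted p = 0.00407). Of the 11 monocyte genes tested 2 were lower and 0 higher (18.2% called against 15.6% of all genes tested, median -0.96), so that the share called was near the background. They were Fn1, which encodes fibronectin (-1.13 ± 0.14), and Plac8 (-1.04 ± 0.24, lost without the anti-PD1 or the anti-PD1-MIF pair). The other leading decreases were Nrg1, a ligand of ErbB receptors, Plcb1 and Prkce, both of phospholipid signaling, Grk5, a G-protein-coupled receptor kinase, Arhgef37, Ldlrad3, Hes1, a target of Notch, and Inhba, a subunit of activin. Hes1 and Inhba lost their call without the anti-PD1 or the anti-MIF pair, and Hes1 also without the anti-PD1-MIF pair.

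**Figure D3:**
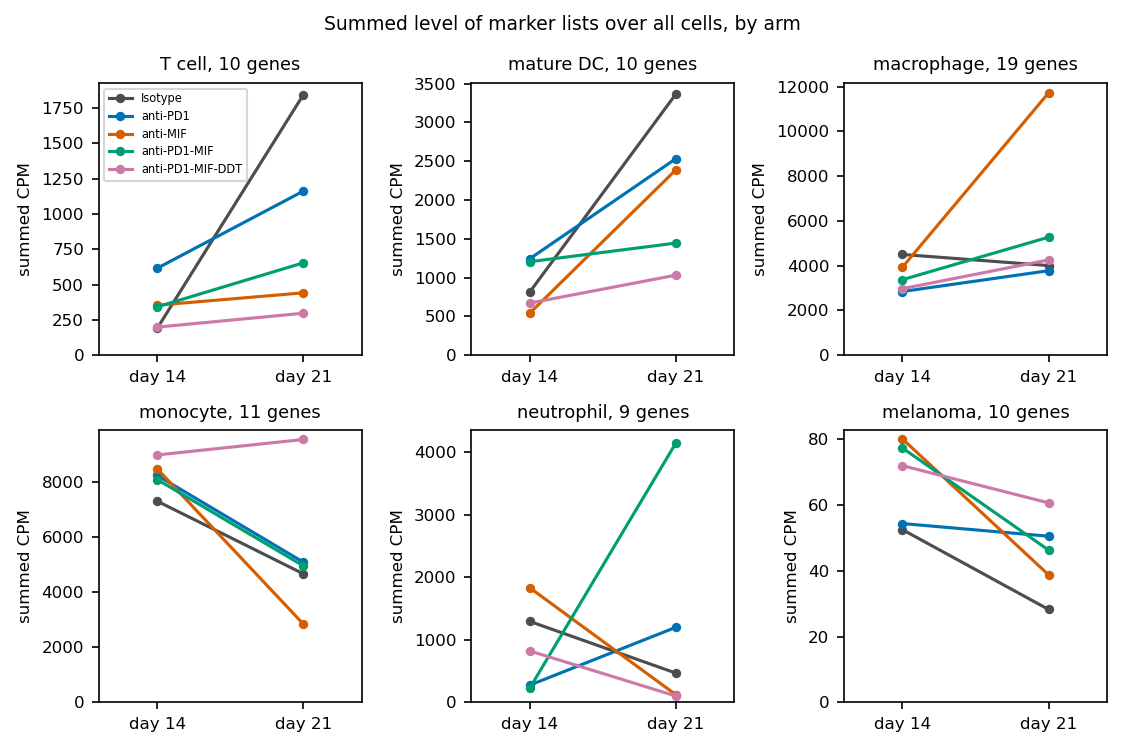
Summed CPM over all cells of 6 marker lists at day 14 and day 21, with a line for each arm and the number of genes of each list in its title. The T cell and mature dendritic cell lists lie higher at day 21 in 5 of 5 arms, and the melanoma list, mostly Mitf, in 0 of 5.

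The marker lists were also summed over all cells. The T cell list, which holds the gate gene Cd3e, summed to a median of 654 CPM at day 21 and 342 at day 14 (higher in 5 of 5 pairs), and the mature dendritic cell list to 2390 and 813 (5 of 5). The monocyte list summed to 4954 and 8234 (higher in 1 of 5 pairs) and the macrophage list to 4257 and 3372 (4 of 5). Neutrophil genes ranged from 102 to 4147 CPM at day 21 and 228 to 1833 at day 14, so some arms held many more of these transcripts than others. Of the 17 macrophage genes tested 5 were higher and 0 lower (C1qa, C1qb, C1qc, Ms4a7 and Cd63), of which C1qa and Cd63 stayed called with the span trend removed. Of the 8 neutrophil genes 1 was lower (12.5% called, against 15.6% of all genes tested), Csf3r, a growth factor receptor. The endothelial list had 1 of 3 genes lower, the adhesion protein Pecam1, lost with the span trend removed. The NK list had 0 of 10 genes called (1 lower, Xcl1, with the trend removed), the plasmacytoid dendritic cell list 0 of 7 and the B cell list 0 of 4. No fibroblast, erythroid or mast cell gene passed the filter on low counts, although the fibroblast list summed to 210 and 348 CPM in the anti-PD1 and anti-PD1-MIF arms at day 21 and to 151 in the anti-PD1-MIF arm at day 14, against 0 to 7.64 elsewhere. The T share was higher at day 21 as well, and its part in these sums was not tested.

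In the T gate, 408 of 3725 genes tested (11%) differed, 208 higher (5.58%) and 200 lower (5.37%) at day 21, and 10.8% had ranges that did not overlap. Scaling by total UMIs alone gave 250 higher and 163 lower. With the span trend removed 219 were called, 166 of them among the 408. Leaving out the anti-PD1 pair left 182 calls and leaving out the anti-PD1-MIF pair 207. The gate held 57, 77, 110, 43 and 21 cells at day 21 and 33, 200, 53, 39 and 46 at day 14, so that the smallest sum rested on 21 cells.

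Several genes of killing were higher and 1 was lower, while most of the list was not called. Prf1, which encodes perforin, was at 650, 548, 267, 525 and 352 CPM at day 21 and 51.7, 209, 184, 73.4 and 203 at day 14 (log2 difference 1.61 ± 0.33, adjusted p = 0.00877). Gzmb, which encodes granzyme B, was at 1335, 1471, 1052, 2437 and 1963 CPM against 569, 1062, 535, 489 and 1085 (1.11 ± 0.20, adjusted p = 0.00457), and Ifng, the cytokine interferon gamma, at 320, 400, 298, 799 and 537 against 103, 258, 149, 73.4 and 249 (1.38 ± 0.29, adjusted p = 0.00909). All 3 were higher in 5 of 5 arms, with overlap between days for Gzmb alone, and kept their call under every alternative in which they were tested. Cst7, an inhibitor of the proteases that activate granzymes, rose by 0.89 ± 0.17, and Gzmk, granzyme K, by 1.5 ± 0.40, the latter losing its call without any 1 of 4 pairs. Gzma, which encodes granzyme A, went the other way, at 13, 5.85, 3.07, 48.1 and 8.80 CPM against 0, 282, 65.8, 514 and 425 (-3.94 ± 0.49, adjusted p = 0.000745). It was lower at day 21 in 4 of 5 arms, and the isotype arm, with no Gzma UMI in 33 T cells at day 14, was the exception. NK cells also express Gzma, and the NK list, which holds it, summed in the T gate to 155, 1319, 434, 1150 and 933 CPM at day 14 and 351 to 565 at day 21. These sums include Gzma itself, and the part of NK cells in its difference was not tested. Of the 4 NK genes tested in the T gate Gzma alone was called. Of the 17 cytotoxic genes tested 5 were higher and 1 lower (median log2 difference 0.77, against -0.0038 over all genes tested), and the same numbers held with the span trend removed.

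Several inhibitory receptors were higher as well. Lag3 (chr6:124904361-124911705, minus strand, mm10) was at 484, 517, 502, 547 and 766 CPM at day 21 and 213, 231, 224, 177 and 277 at day 14. The arms lay close together within each day and far apart between them, and the log2 difference was 1.28 ± 0.15 (adjusted p = 0.000376). Pdcd1 was at 567, 437, 578, 477 and 704 CPM against 259, 344, 250, 165 and 457 (0.90 ± 0.17, adjusted p = 0.00644), and it was higher in the arms with and without anti-PD1, with overlap between days. Tigit, a receptor for nectin-like ligands, was at 445, 320, 435, 403 and 651 CPM against 278, 204, 123, 141 and 231 (1.16 ± 0.19, adjusted p = 0.00298), and Havcr2, which encodes TIM-3, at 338, 189, 152, 222 and 246 against 38.8, 146, 52.6, 85.6 and 162 (1.15 ± 0.28, adjusted p = 0.0211). Of the 22 genes tested from the inhibitory list 8 were higher and 1 lower (median 0.51), and 7 and 0 with the span trend removed, of which 5 were among the 8 and Tox and Entpd1 were called only there. Rgs16 (1.03) was the fifth and Klrc1 (0.81), Cxcr6 (0.71) and Rgs1 (0.65) the others, and these 3 lost their call with the trend removed. The lower gene was Nr4a3, a nuclear receptor induced by antigen receptor signaling (-0.82 ± 0.24, adjusted p = 0.0434, lost with the trend removed).

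Several transcription factors of naive and memory T cells were lower. Tcf7, which encodes TCF-1, was at 5.20, 41.0, 6.14, 29.6 and 8.80 CPM at day 21 and 58.2, 74.5, 83.3, 91.7 and 46.2 at day 14 (log2 difference -1.99 ± 0.41, adjusted p = 0.00852). Lef1, its relative, was at 5.20, 15.6, 26.1, 25.9 and 35.2 CPM against 71.1, 64.6, 114, 287 and 41.6 (-2.47 ± 0.35, adjusted p = 0.00172). Both were without overlap between the days, but DESeq2 did not call them. Satb1, a chromatin organizer, was at 78.0, 64.4, 98.3, 70.3 and 106 CPM against 168, 266, 263, 349 and 189 (-1.64 ± 0.22, adjusted p = 0.000985), and kept its call under every alternative that tested it, as did Bach2 (-1.74 ± 0.27) and Foxo1 (-1.41 ± 0.23). Klf2, a regulator of T cell exit from tissue, was the sixth of 15 list genes tested that were lower (-1.22 ± 0.21), while 0 were higher (median -0.83). Satb1, Bach2, Foxo1 and Lef1 span 84.9 to 347 kb, and the 6 to 0 held with the span trend removed.

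**Figure D4:**
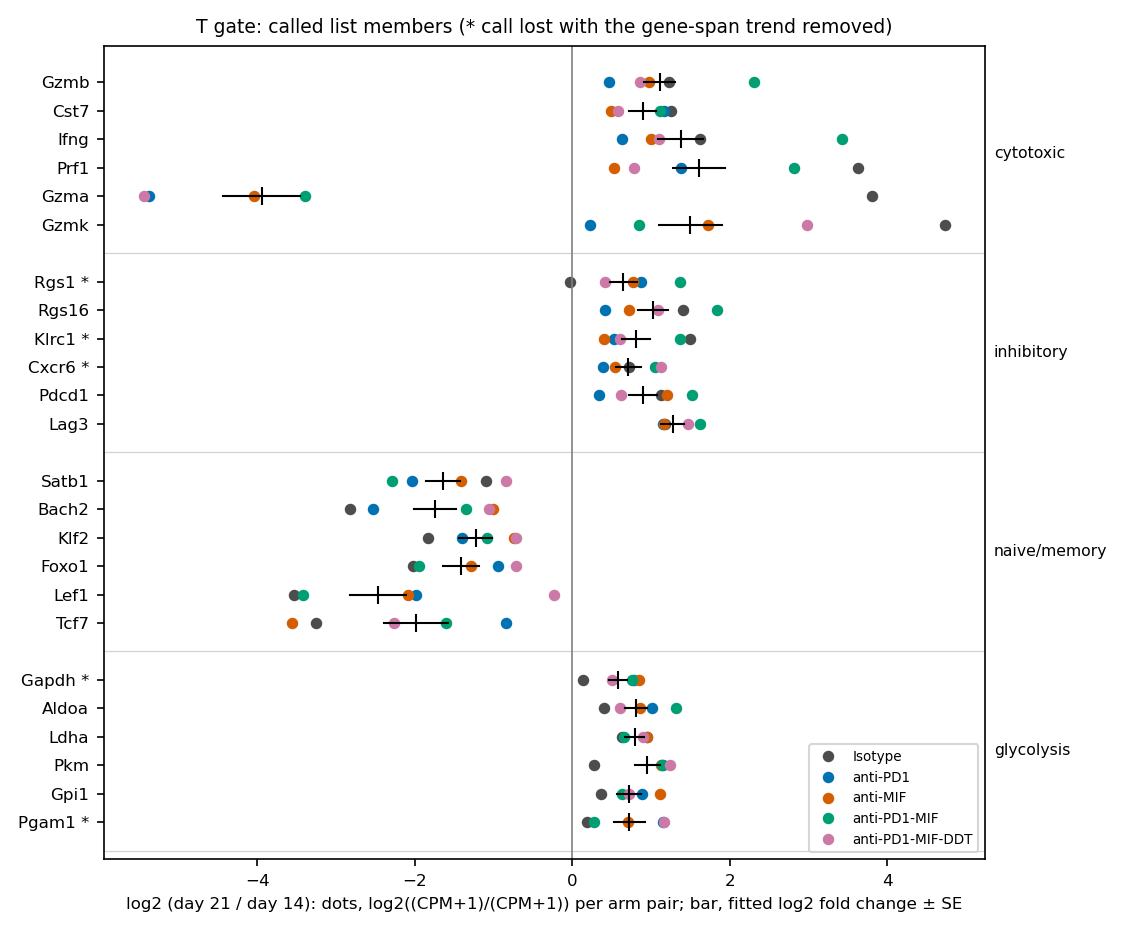
Log2 difference between day 21 and day 14 in the T gate for up to 6 called members of the cytotoxic, inhibitory, naive or memory and glycolysis lists, with a dot for each arm pair and a bar for the fitted value and its SE (an asterisk marks a call lost with the span trend removed). The 6 naive or memory genes lie below 0 in all 5 pairs, and Gzma lies below 0 in 4 of 5.

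Outside these lists, Ripor2, a regulator of T cell polarity, fell by 2.13 ± 0.23 on the log2 scale (adjusted p = 0.000197), from 136, 184, 167, 367 and 185 CPM at day 14 to 33.8, 37.1, 61.4, 48.1 and 52.8 at day 21. Emb, an adhesion protein of the basigin family, Sidt1, Fgf13, Scml4, Plcxd2, Slco3a1 and Cxcr4, a chemokine receptor, were the other largest decreases. Spp1, which encodes osteopontin, was at 180, 185, 184, 88.8 and 229 CPM at day 21 and 0, 76.6, 17.5, 6.12 and 0 at day 14, with no overlap (2.67 ± 0.48, adjusted p = 0.00472). Macrophages also express Spp1, and in the myeloid gate its log2 difference was -0.10 ± 0.20 (adjusted p = 0.776). The macrophage list summed to 854 CPM in the T gate at day 21 and 446 at day 14, higher in 5 of 5 arms and mostly Ctsd, and of its 19 genes 2 had no UMI at day 21 (Mrc1 and Cd163). Of the 3 macrophage genes tested in the T gate 2 were higher, Ctsd and Spp1, as were both tested in the CD8 gate, and these calls held with the span trend removed. The part of macrophage transcripts in the T gate was not tested. Trbv19, a variable gene of the T cell receptor beta chain (chr6:41178375-41179048, plus strand), was at 140, 468, 144, 185 and 167 CPM against 32.3, 23, 65.8, 48.9 and 69.3 (2.38 ± 0.42, adjusted p = 0.00396). It was higher in 5 of 5 arms and the anti-PD1 arm was the highest. Tuba1c, a tubulin with close copies, H2afx, a histone, Ptp4a1, a phosphatase, Serpinb9b, a protease inhibitor, and Gbp10, a guanylate-binding protein, rose by 1.46 to 1.65.

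Several glycolytic enzymes were higher in T cells at day 21, although most genes of the list were not called. Pkm, pyruvate kinase, was at 760, 892, 805, 847 and 872 CPM against 627, 401, 368, 385 and 369 (log2 difference 0.95 ± 0.15, adjusted p = 0.00298), and Ldha, lactate dehydrogenase, at 1033, 1003, 989, 888 and 1048 against 666, 517, 513, 563 and 563 (0.79 ± 0.12, adjusted p = 0.00259). Neither overlapped between days, and of the 26 hypoxia and glycolysis genes tested 6 were higher and 0 lower (median 0.23). Aldoa and Gpi1 were also higher, and Gapdh and Pgam1 lost their call with the span trend removed. Of the 20 type I interferon genes tested 0 differed, and of the 19 MHC class I genes 3 were higher, of which only H2-T22 (0.80 ± 0.15) kept its call with the trend removed. Of the 21 cell cycle genes 3 were higher, namely Tubb5, Tuba1b and Top2a, and Top2a lost its call with the trend removed and in DESeq2. Mif and Ddt, the cytokine and its homolog, were not called (-0.08 ± 0.15 and 0.10 ± 0.23), while Cxcr4, a receptor of MIF, fell by 1.81 ± 0.40 and Cd44, the co-receptor of CD74, by 0.73 ± 0.15, the latter losing its call with the trend removed. In the remaining lists, 1 T activation gene of 15 was higher (Cxcr6) and 2 lower (Cd44 and Itgb1), and 2 of 25 immediate-early and stress genes were higher (Hspa8 and Jund, both lost with the trend removed) and 1 lower (Klf2).

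The CD8 gate, which is part of the T gate and so no independent measurement, gave 272 of 3086 genes (8.81%), 141 higher (4.57%) and 131 lower (4.24%), and 10.2% had ranges that did not overlap. When libraries were scaled by total UMIs alone, a second alternative chosen after seeing the data, the split was 198 higher and 92 lower. With the span trend removed 169 were called, 128 of them among the 272. The gate held 15 to 73 cells an arm at day 21 and 15 to 137 at day 14. Prf1 was at 678, 717, 340, 585 and 420 CPM at day 21 and 115, 253, 235, 66.4 and 225 at day 14 (log2 difference 1.46 ± 0.27, adjusted p = 0.00468). Lag3 was at 494, 641, 612, 577 and 839 CPM against 260, 308, 287, 237 and 326 (1.09 ± 0.15, adjusted p = 0.000925). Both kept apart between days with the CD4 cells removed. Of the 16 cytotoxic genes tested 5 were higher and 1, Gzma, lower, of the 22 inhibitory genes 9 were higher and 0 lower, and of the 12 naive and memory genes 0 were higher and 5 lower. With the span trend removed the cytotoxic list again had 5 higher and 1 lower and the naive and memory list 0 and 5 (Bach2 lost, Il7r called only there), whereas the inhibitory list had 6 higher and 0 lower. Rgs1, Cxcr6 and Klrc1 were no longer called, and Tox and Entpd1 were called only there. Pdcd1 (0.80 ± 0.18) and Havcr2 (0.97 ± 0.27) lost their call as well, whereas Tigit (1.23 ± 0.21) and Cd244a, the receptor 2B4 (0.92 ± 0.25), kept it. Ly6c2, which memory CD8 T cells carry, fell by 1.07 ± 0.27 and lost its call without the anti-MIF or the anti-PD1-MIF-DDT pair. Ly6c2 is also the most abundant gene of the monocyte list in this gate, and Plac8 of that list fell too, so that 2 of its 3 genes tested were lower. The list summed to a median of 1280 CPM at day 21 and 2562 at day 14 in the CD8 gate and to 1228 and 2351 in the T gate, higher at day 21 in 0 of 5 pairs in each, and the part of monocyte transcripts in these gates was not tested. Satb1, Foxo1 and Klf2 fell by 1.71, 1.71 and 1.55, and Ube2c, a ubiquitin ligase subunit of mitosis, rose by 2.01 ± 0.30, with the call lost without the block for arm (1.54 ± 0.61). Casp1, a protease of the inflammasome, Kdelr1, a receptor of the secretory pathway, Ccrl2 and Pdlim2 rose too, although DESeq2 called none of these 4, and Dgat1, an enzyme of triglyceride synthesis, fell by 1.75 ± 0.34. The remaining largest decreases (Fgf13, Slco3a1, Scml4, Plcxd2, Emb and Ust) ranged from -2.09 to -1.73.

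In the myeloid gate, 995 of 9108 genes tested (10.9%) differed, 443 higher (4.86%) and 552 lower (6.06%) at day 21, and 11.2% had ranges that did not overlap. With the span trend removed the numbers were 222 higher and 182 lower, and 321 of the 995 were still called. Leaving out the anti-PD1, the anti-MIF or the anti-PD1-MIF pair left 379, 393 and 562 calls. Of the 995 calls, 361 were kept without the anti-PD1 pair. Among the 71 genes followed by name in this gate, 30 lost their call without it, although some of the 71, such as Mif and Ddt, had no call to lose. Without the anti-MIF pair 14 of 68 did and without the anti-PD1-MIF pair 14 of 70, and not every loss is marked below. The gate held 55, 132, 531, 147 and 235 cells at day 21 and 495, 1042, 358, 294 and 776 at day 14.

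The genes of C1q, 3 neighbors on chromosome 4 (C1qb at chr4:136880129-136886187, C1qc at chr4:136889804-136893065 and C1qa at chr4:136895917-136898803, all on the minus strand), were among the largest increases. C1qa was at 1219, 803, 2654, 1075 and 488 CPM at day 21 and 454, 248, 293, 321 and 188 at day 14 (log2 difference 1.89 ± 0.23, adjusted p = 0.00234). C1qb was at 1546, 1253, 3432, 1628 and 913 CPM against 774, 576, 545, 622 and 364 (1.51 ± 0.21, adjusted p = 0.00445), and C1qc rose by 1.64 ± 0.26 (adjusted p = 0.00698). For all 3 the lowest day 21 arm, anti-PD1-MIF-DDT, lay above the highest day 14 arm, and anti-MIF was the highest at day 21. Of the 17 macrophage genes tested in this gate 5 were higher and 0 lower (the 3 C1q genes, Ms4a7 and Apoe), and 4 and 1 with the span trend removed. The other largest increases were Ckb, a creatine kinase, by 1.93 ± 0.17, Cd72, a lectin receptor, by 1.85 ± 0.19, Ms4a7 by 1.78 ± 0.36 and the tetraspanin Cd81 by 1.76 ± 0.27. Of the 24 complement and phagocytosis genes tested 8 were higher and 2 lower, with a median of 0.42 against 0.016 over all genes tested, and 7 and 0 with the span trend removed. The receptors for the complement fragments C3a and C5a, C3ar1 (1.04 ± 0.14) and C5ar1 (0.79 ± 0.11), Cfp, which stabilizes the alternative pathway convertase (0.74 ± 0.13), and Axl, a receptor for dying cells, were higher, as was the Fc receptor Fcgr1, which lost its call with the trend removed. C3, the central component of the cascade, was lower (-0.62) and lost its call with it too.

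**Figure D5:**
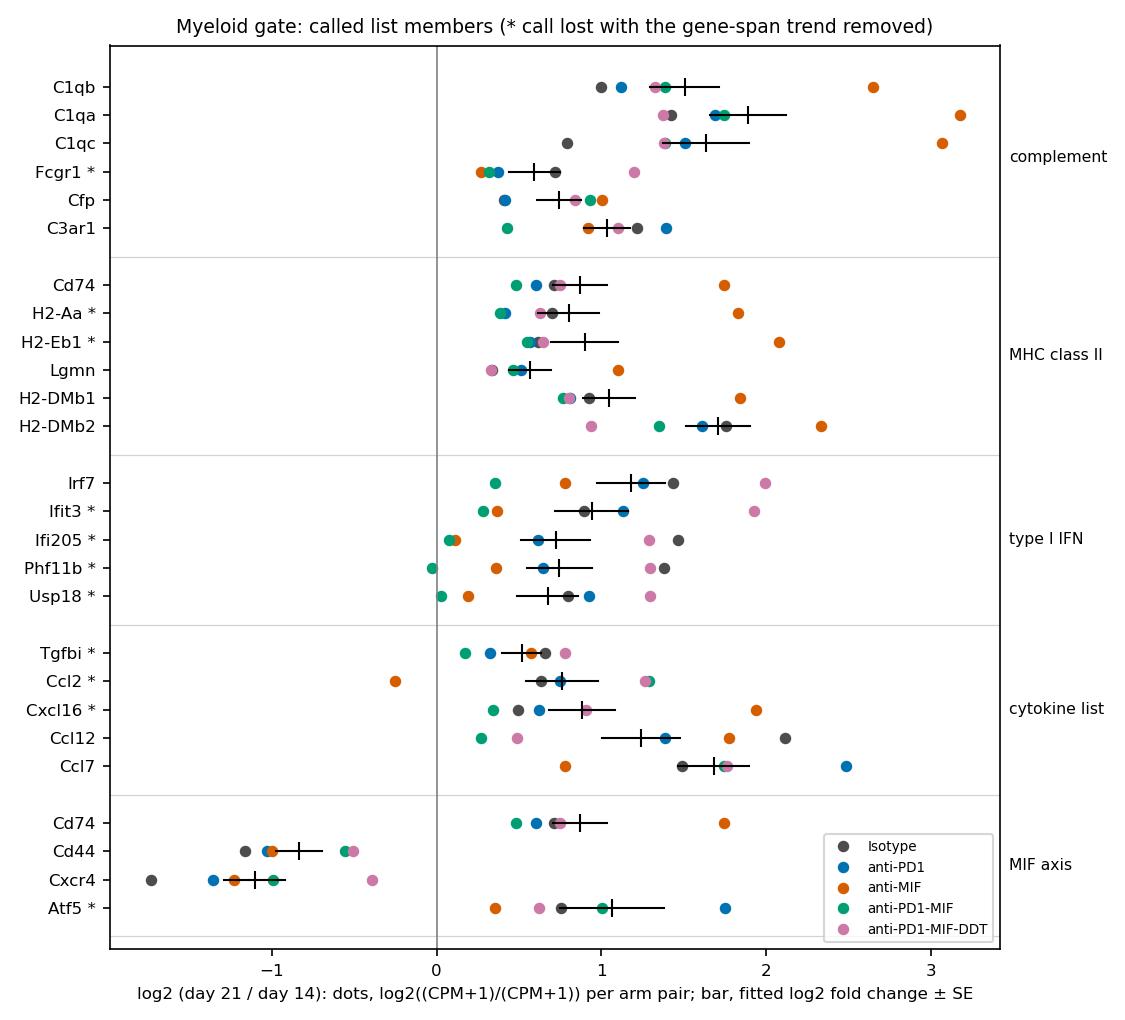
Log2 difference between day 21 and day 14 in the myeloid gate for up to 6 called members of 5 lists, with a dot for each arm pair and a bar for the fitted value and its SE (an asterisk marks a call lost with the span trend removed). The 6 MHC class II genes lie above 0 in all 5 pairs with the anti-MIF pair furthest out, while Cd44 and Cxcr4 lie below 0 in all 5.

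Several MHC class II genes were higher in myeloid cells. Cd74 was at 10824, 12071, 16971, 11112 and 10564 CPM at day 21 and 6596, 7952, 5067, 7956 and 6292 at day 14, without overlap (log2 difference 0.87 ± 0.16, adjusted p = 0.0114). H2-Aa and H2-Eb1, the alpha chain of I-A and the beta chain of I-E, rose by 0.80 ± 0.18 and 0.90 ± 0.20, but both lost their call with the span trend removed and with HTODemux, and H2-Eb1 also without the anti-PD1 pair. H2-DMb1, a chain of the H2-DM complex that loads peptides, was at 483, 506, 717, 518 and 391 CPM against 254, 288, 199, 304 and 223 (1.05 ± 0.16, adjusted p = 0.00583). Its neighbor H2-DMb2 rose by 1.71 ± 0.19 and H2-Oa, a chain of the H2-DO complex that restrains loading, by 1.25 ± 0.23, at 10.5 to 17.6 CPM against 4.24 to 8.71. H2-DMb1 and H2-DMb2 are close copies and could share reads. Lgmn, a lysosomal protease, was the remaining one (0.57 ± 0.13, lost without the anti-PD1, the anti-MIF or the anti-PD1-MIF pair). Of the 16 list genes tested 7 were higher and 0 lower (median 0.56), and 5 and 0 with the trend removed. H2-Ab1 (0.56 ± 0.20, adjusted p = 0.0852) and Ciita, the master regulator of the class (0.34 ± 0.15, adjusted p = 0.141), were not called.

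MHC class II promoters carry a Y box, read here as the letters TGATTGG on either strand within 250 bases before and 50 after the gene start in RefSeq (GRCm38.p6). These letters were found in 5 of the 6 called list members with an entry and in 3 of the 7 others, against 2431 of 27025 genes (9.0%). The 130 bases before the start are shown for the 5 called members with a match, all on chromosome 17, with the motif in capitals.
H2-Aa (chr17:34287824-34287953, minus strand): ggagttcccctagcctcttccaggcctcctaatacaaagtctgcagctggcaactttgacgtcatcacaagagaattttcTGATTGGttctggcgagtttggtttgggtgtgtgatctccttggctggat
H2-Eb1 (chr17:34305737-34305866, plus strand): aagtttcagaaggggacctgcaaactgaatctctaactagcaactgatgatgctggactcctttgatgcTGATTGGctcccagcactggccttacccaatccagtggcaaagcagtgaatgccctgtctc
H2-DMb1 (chr17:34153061-34153190, plus strand): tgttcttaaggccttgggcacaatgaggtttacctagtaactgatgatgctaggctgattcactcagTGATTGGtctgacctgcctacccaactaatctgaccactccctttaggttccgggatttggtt
H2-DMb2 (chr17:34145119-34145248, plus strand): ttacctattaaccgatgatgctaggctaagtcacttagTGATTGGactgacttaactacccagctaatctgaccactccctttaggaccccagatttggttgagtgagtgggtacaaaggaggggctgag
H2-Oa (chr17:34092249-34092378, plus strand): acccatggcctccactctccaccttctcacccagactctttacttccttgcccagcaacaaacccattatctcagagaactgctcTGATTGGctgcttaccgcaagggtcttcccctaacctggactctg
The motif lay 45 to 92 bases before the start in these 5 genes. A match is a description of the letters and not evidence of binding.

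In the list of cytokine genes, Ccl7, a chemokine that attracts monocytes, was at 272, 403, 237, 212 and 149 CPM at day 21 and 96.3, 71.0, 137, 62.6 and 43.3 at day 14, without overlap (log2 difference 1.68 ± 0.21, adjusted p = 0.00272). Ccl12, of the same cluster on chromosome 11, rose by 1.24 ± 0.24, with the call lost without the block for arm (1.33 ± 0.47), and Ccl2 (0.76), Cxcl16 (0.88) and Tgfbi, a matrix protein (0.52), lost their call with the span trend removed. Of the 24 inflammatory cytokine genes tested 5 were higher and 0 lower, although the median was -0.13. Irf7, a regulator of interferon genes, was at 637, 883, 575, 500 and 1159 CPM against 235, 370, 335, 391 and 291 (1.18 ± 0.21, adjusted p = 0.00958) and kept its call in every alternative. Of the 38 type I interferon genes tested 5 were higher and 0 lower (13.2% against the background of 10.9%), and only Irf7 stayed called with the trend removed. Among 30 interferon gamma genes 2 were higher and 1 lower (10.0% called, near the background). The higher were the near-identical Tgtp1 and Tgtp2, which both lost their call with the trend removed. The lower was Nos2, which encodes inducible nitric oxide synthase (-0.95 ± 0.22, lost without the anti-PD1 or the anti-MIF pair). Slc7a2, the transporter of its substrate arginine, fell by 1.56 ± 0.30. Of the 20 genes tested from the suppressive myeloid list 1 was higher (Lgals9, lost with the trend removed) and 2 lower (Nos2 and Slc7a2), 15.0% called.

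The genes of MIF and its receptors moved in both directions. Mif (0.02 ± 0.11) and Ddt (0.26 ± 0.11) were not called, at 649 to 857 CPM against 687 to 799 for Mif. Cd74 rose as above, while Cd44 was at 515, 493, 374, 468 and 745 CPM against 1158, 1008, 747, 687 and 1061 (log2 difference -0.83 ± 0.14, adjusted p = 0.00852). Cxcr4 was at 87.7, 109, 90.4, 137 and 283 CPM against 294, 281, 213, 274 and 370 (-1.10 ± 0.19, adjusted p = 0.00836). Both were lower at day 21 in 5 of 5 arms, with ranges that overlapped between days, and kept their call under every alternative, and anti-PD1-MIF-DDT was the highest arm of each day for Cxcr4. Atf5, a transcription factor and not a receptor, rose by 1.06 ± 0.31 but lost its call in most alternatives. Aif1, which marks macrophages, was not called (0.35 ± 0.15), nor was Ly6c2 (-0.13 ± 0.26).

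Ace was again lower, at 35.8, 76.1, 27.1, 37.2 and 52.5 CPM against 121, 115, 150, 133 and 222 (log2 difference -1.74 ± 0.24, adjusted p = 0.00362), so that the decrease over all cells was also seen within the myeloid gate. Stxbp6 (-1.86), a regulator of membrane fusion, Ccdc88c (-1.85), Ldlrad3 (-1.73), Grk5 (-1.51), Hpgd, which breaks down prostaglandins (-1.5), Arhgef37 (-1.43), Thbd, which encodes thrombomodulin (-1.40), and Pdlim1 (-1.39) were the other largest decreases with Nrg1 (-1.72), which lost its call with the trend removed. Of the 21 cell cycle genes tested 5 were higher and 0 lower (23.8% called, against 10.9% of all genes), of the 34 hypoxia and glycolysis genes 5 and 0 (14.7%, median -0.08), and of the 19 MHC class I genes 2 and 0 (10.5%). With the span trend removed 3, 2 and 0 were higher. Of the 32 lipid and lysosome genes (15.6% called) 4 were higher, including Apoe, and 1 lower, Fabp4, which bind lipids outside and inside cells. With the trend removed 1 was higher, Lgmn, and 1 lower, Fabp5, and Apoe, Fabp4 and the other 2 lost their call. Of the 29 immediate-early and stress genes (17.2% called) 3 were higher (Zfp36, Ier5 and Socs3, all 3 lost with the span trend removed) and 2 lower (Hsp90aa1 and Klf2). In this gate the macrophage list summed to a median of 7179 CPM at day 21 and 4077 at day 14 (higher in 5 of 5 arms) and the monocyte list to 8017 and 10061 (higher in 1 of 5). T cell genes stayed at 4.34 and 6.26, and neutrophil genes reached 6323 in the anti-PD1-MIF arm at day 21, so that the gate mixed cell states in unequal parts.

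Within the C1q gate, in which the share of C1q cells no longer enters, 33 of 6555 genes tested (0.503%) differed, 18 higher (0.275%) and 15 lower (0.229%), and 4.68% had ranges that did not overlap. The numbers were 13 and 5 with the span trend removed, and 10 of the 33 were still called. Leaving out the anti-PD1 pair left 2 calls, the anti-MIF pair 2 and the anti-PD1-MIF-DDT pair 3, while leaving out the anti-PD1-MIF pair gave 107. Without the block for arm 113 were called. The gate held 16 to 357 cells an arm at day 21 and 51 to 201 at day 14.

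Ccl7 was at 606, 1051, 309, 276 and 317 CPM at day 21 and 183, 158, 182, 189 and 129 at day 14 (log2 difference 1.43 ± 0.26, adjusted p = 0.0401), without overlap but with the call lost when the span trend was removed. Ckb, Cd72 and Fcgrt, the neonatal Fc receptor, rose by 1.28 ± 0.17, 1.27 ± 0.20 and 1.39 ± 0.22, and Hist1h1e, a linker histone, by 1.51 ± 0.21. Ace was at 0, 14.3, 3.15, 5.24 and 1.45 CPM against 21, 39.0, 48.9, 14.2 and 55.4 (-3.19 ± 0.47, adjusted p = 0.0194), lower at day 21 in 5 of 5 arms, and lost its call without the anti-MIF or the anti-PD1-MIF-DDT pair and in DESeq2. The calls of Ckb, Cd72 and Fcgrt were lost without the anti-PD1, the anti-MIF or the anti-PD1-MIF-DDT pair, and that of Hist1h1e without the anti-PD1 or the anti-MIF pair. Ace and Ckb thus kept the direction they had in the whole myeloid gate. The next largest decreases were Nrg1, Plcb1, Cpeb4, Abtb2, Pde7b, Ext1, Arfgef1, Pde8a and Lrmda, and 0 of these 9 stayed called with the span trend removed. Of the 12 MHC class II genes tested 0 were called (median 0.28), and Cd74 itself differed by 0.46 on the log2 scale, short of the call. The complement list had 1 gene of 22, the gate gene C1qa, which was part of the rule for the gate, the cytokine list 1 of 21 (Ccl7), and the immediate-early list 2 of 29 (Ier5 and Socs3, both lost with the span trend removed). The type I interferon, interferon gamma, MHC class I, cell cycle, glycolysis, lipid, suppressive and MIF lists had 0 called.

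An interaction in the myeloid gate compared the day difference between the 3 arms with MIF in their name and the 2 without. The anti-PD1-MIF-DDT arm was placed by its name, since its agents are not given in the sources used here. Of 9108 genes 0 were called (0%) in edgeR's quasi-likelihood test with Benjamini-Hochberg adjustment. An unadjusted p under 0.05 was found for 445 genes, which is about as many as that threshold gives by chance. DESeq2 called 10 and edgeR without the filter on low counts 89. The smallest p belonged to Got1, an aminotransferase of the malate shuttle, at 69.8, 68.9, 118, 93.6 and 194 CPM at day 21 and 117, 128, 60.5, 61.1 and 111 at day 14 (difference of differences 1.68 ± 0.23 on the log2 scale, adjusted p = 0.171). It was lower at day 21 in the isotype and anti-PD1 arms and higher in the 3 arms with MIF in their name. Fosb (2.47), Specc1l (2.21), Nr4a3 (2.31) and Il1b (1.5) came next, and none passed the adjustment in this fit. All 5 of these genes passed it in DESeq2 and in edgeR without the filter, and Fosb also without the anti-PD1-MIF-DDT pair. The 5 were picked by their p in this interaction, so a split between the 2 sets of arms was part of the choice. Il1b, which encodes interleukin 1 beta, was at 1426, 1455, 2356, 1940 and 3269 CPM against 2594, 3157, 1423, 1763 and 2313 (adjusted p = 0.201). Its level was lower at day 21 in the isotype and anti-PD1 arms and higher in the 3 arms with MIF in their name.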

How the data were processed

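Gene and hashtag UMIs of 2 pooled 10x 5′ libraries were analysed. The authors deposited whole-number counts per gene and cell barcode, made with Cell Ranger 7.1.0 on mm10. The submitters' processing notes also name Seurat 5.1.0, R 4.3.2 and DESeq2. Whether intronic reads were counted is not given in the sources used here. Cells with 200 to 5000 genes and at most 5% mitochondrial UMIs were kept, and doublets across arms were removed only by the hashtag ratio of 3, so that doublets within an arm remained. Total gene UMIs were 23702910 at day 21 and 31799441 at day 14.

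UMIs were summed per arm and gate, which are not independent between nested gates. Sums were tested with edgeR 4.0.16 in R 4.3.3 (filterByExpr, TMM, quasi-likelihood test, arm and cohort as terms, Benjamini-Hochberg adjustment), and printed CPM carry no TMM factor. Each arm of a cohort is 1 sample, so p-values measure only the spread between these samples. Shares were computed on cells thinned to 2000 UMIs with Python 3.11.15 and SciPy 1.17.1. Alternatives used DESeq2 1.42.0, Seurat 5.3.0 (HTODemux), other limits on cells, another scaling, no filter, thinned counts, each arm left out and, chosen after seeing the data, scaling by total UMIs and the span trend removed (GENCODE vM21, lowess). On simulated data for all cells, 95% of genes changed by 2 on the log2 scale and 80% of those changed by 1 were recovered, and in the T gate 93% and 74%. In the CD8, myeloid and C1q gates these were 85% and 74%, 95% and 85%, and 91% and 71%. False calls numbered 7, 8, 2, 10 and 15 in the same order. The simulated counts held no arm effects and no span trend, so these rates need not hold in the data.

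Members and lists were chosen with earlier results of these data known. Named were up to 10 called genes in each direction per comparison (same sign in all 5 pairs, mean CPM of at least 20, no ribosomal, mitochondrial or unnamed genes), up to 6 called members of each list, and fixed genes such as Mif, Cd74 and Pdcd1. Tigit, Havcr2, Nr4a3, Cd244a, C5ar1, Axl, C3, H2-Oa, H2-Ab1, Ciita, Ctsd, Xcl1, Tox, Entpd1, Fabp5, Il7r and Eno1 were added after their values were seen. The values of 1 list member are not reported here.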

Additional observations from a re-analysis of the deposited data

Results flagged for a closer look

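In 13 of 147 groups of 5 pair differences, 1 arm stood apart from the other 4 by Dixon's test, which chance does in about 1 of 20 groups. In the isotype arm, the share of T cells differed by 30.4 percentage points between days, against 1.83 to 9.13 in the others, and over all cells Cd3e differed by 4.38 (others 0.71 to 1.46) and Cd8a by 3.95 (others 0.60 to 1.41) on the log2 scale. In the anti-MIF arm, the myeloid gate differed by 3.17 for C1qa (others 1.37 to 1.74), 2.65 for C1qb (1.0 to 1.39) and 1.74 for Cd74 (0.48 to 0.75), and Il12b over all cells by 4.51 (1.13 to 1.79). Ube2c, a gene of mitosis, differed by 6.15 in the CD8 gate of that arm (0.93 to 2.23).

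In the anti-PD1 arm, Grk5 differed by -0.65 in the myeloid gate (others -1.84 to -1.51) and Nrg1 by -3.84 in the C1q gate (-1.83 to -1.08). In the anti-PD1-MIF arm, Sidt1 differed by -3.95 in the T gate (-1.91 to -1.68) and Cd72 by 0.21 in the C1q gate (1.32 to 1.74). In the anti-PD1-MIF-DDT arm, Hes1 over all cells differed by -0.11 (-1.90 to -1.66).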

How the results depend on the processing

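Counts of calls moved by over 1.5 times as follows. Over all cells, thinning gave 570 calls and removing the span trend 948, and leaving out 1 pair gave 688 to 1749 (701 without anti-PD1, 688 without anti-MIF, 798 without anti-PD1-MIF). In the T gate, DESeq2 gave 176, thinning 107, the span trend removed 219 and leaving out 1 pair 182 to 333 (182 without anti-PD1, 207 without anti-PD1-MIF). In the CD8 gate these were 151, 66, 169 and 164 to 203 (164 without anti-PD1, 180 without anti-PD1-MIF). In the myeloid gate, no filter on low counts gave 1607, thinning 386, the span trend removed 404 and leaving out 1 pair 379 to 993 (379 without anti-PD1, 393 without anti-MIF, 562 without anti-PD1-MIF). In the C1q gate, DESeq2 gave 63, no filter 384, thinning 5, HTODemux 20, the span trend removed 18 and leaving out 1 pair 2 to 107 (14 without isotype, 2 without anti-PD1 or anti-MIF, 107 without anti-PD1-MIF, 3 without anti-PD1-MIF-DDT). For the interaction DESeq2 gave 10, no filter 89 and leaving out 1 pair 0 to 1. Of the genes followed by name that could still be tested after thinning, 8 of 55 lost their call over all cells and 10 of 35 in the T gate. The losses were 15 of 29 in the CD8 gate, 9 of 63 in the myeloid gate and 8 of 16 in the C1q gate.

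The fit without the arm as a replicate block called 1454 genes over all cells, 582 in the T gate, 390 in the CD8 gate, 1095 in the myeloid gate and 113 in the C1q gate. Of the genes followed by name, 9 of 57 lost their call in that fit over all cells and 0 of 58 in the T gate. The losses were 6 of 53 in the CD8 gate, 10 of 71 in the myeloid gate and 2 of 28 in the C1q gate. The deviations of same-named arms from their cohort's mean correlated from -0.15 to 0.54 across gates and arms, not above 0.1 in every arm of any gate. The fits and share tests matched the arms by treatment, and these correlations do not show that same-named samples deviate together in every arm. The anti-PD1-MIF-DDT arms correlated at 0.54 over all cells, 0.38 in the myeloid gate and 0.37 in the C1q gate. At most 1 of 5 arms correlated best with its own name.

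The difference in the Foxp3 share of T cells was -2.32 points without the anti-PD1-MIF-DDT pair (leave-one-out range -2.32 to 5.25). The cycling share of T cells differed by -1.41 without the isotype pair (-1.41 to 4.88) and by 12.9 without thinning, and that of myeloid cells by 5.16 without thinning. Among the genes followed by name, none that was called in the main fit or in an alternative changed direction between the 2. Genes called in neither fit, and those added after their values were seen, were not covered by this check. Many genes lost their call and not every loss is marked. Leaving out 1 pair removed the call of 2 to 21 genes followed by name over all cells and 3 to 7 in the T gate. It removed 4 to 9 in the CD8 gate, 14 to 30 in the myeloid gate and 1 to 21 in the C1q gate. The genes followed by name include fixed genes that were not called, such as Mif in the T and myeloid gates, which could lose no call. Without the anti-PD1 pair, 361 of all 995 calls were kept in the myeloid gate and 2 of 33 in the C1q gate. HTODemux removed 5 of 57, 3 of 58, 2 of 52, 14 of 71 and 9 of 27 in the same order. The cause of these changes was not tested. The T gate rested on as few as 21 cells an arm, and genes at a few CPM rest on a few UMIs there.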

Other observations

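Eno1b, a gene nearly identical in sequence to the enolase gene Eno1, was higher at day 21 in each gate, with log2 differences of 1.54 ± 0.11 over all cells, 2.34 ± 0.22 in the T gate, 2.35 ± 0.25 in the CD8 gate, 1.74 ± 0.13 in the myeloid gate and 1.67 ± 0.19 in the C1q gate. In the T gate it was at 130, 123, 177, 178 and 141 CPM at day 21 and 25.9, 27.4, 30.7, 24.5 and 27.7 at day 14. The arms were alike within a day, and Eno1 itself was not called in these gates (-0.06 over all cells and 0.27 in the T gate). Reads of such copies can be split between them, and their part in this difference was not tested. Y-linked Ddx3y (-0.55) and Uty (-0.65) were lower at day 21 over all cells, and the second lost its call with the span trend removed.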
